A study of Mus musculus and synthetic RNA with 74 samples.

Results

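The genes described here encode the proteins of the cytosolic ribosome. They were taken from the gene tables of single mouse embryos by their official symbols, as Rpl or Rps followed by a number with an optional letter or a final l or l1, together with Rplp0, Rplp1, Rplp2 and Rpsa. This gave 86 genes of the 21890 genes listed in either table, 53 of the large (60S) subunit and 33 of the small (40S) subunit, and all 86 were listed at both stages. Symbols of ribosomal protein S6 kinases, of Rps19bp1 and of named pseudogenes were not taken. The deposited annotation classes 84 of the 86 as protein coding and the others, Rps4l and Rpl32l, as processed pseudogenes.

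The embryos came from crosses of Mettl16 HET females and males, the females superovulated, of a line that carries a triple-stop codon cassette in exon 3 of Mettl16, the gene of an m6A methyltransferase. The founders were B6D2F1/J zygotes edited with Cas9 and were crossed with C57BL/6JRj partners, so the litters were of mixed B6 and D2 background. At embryonic day 2.5 (E2.5, morula) 31 embryos were sequenced, of which 5 were WT, 14 HET and 12 KO. At E3.5 (blastocyst) there were 39 embryos, 18 WT, 9 HET and 12 KO, and the genotypes were called from reads over the edited part of Mettl16. The HET and KO embryos differ from WT in this allele alone as far as the labels say, and all embryos had HET mothers. For Ccdc92b and Gm15698, which like Mettl16 lie on chromosome 11, the paper adds a limit. It says that their difference in KO embryos might come from chromosome 11 sequence of the mixed background. Of the members, 7 lie on that chromosome. The series also holds in vitro methylation of a synthetic RNA library, which contains no gene and was not used here.

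Each library was made from the polyadenylated RNA of 1 embryo with Smart-seq2, which keeps no strand. The tables as deposited give 1 value per gene and stage, the authors' mean of the normalized count over all embryos of the stage, and the same per exon and intron. WT, HET and KO embryos are thus pooled in every value below, no spread between embryos can be given, and no difference between genotypes was tested. The stages were normalized separately, and the mix of genotypes differs between them, so a difference between stages cannot be told apart from a difference in that mix or between the collections.

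As background, the large subunit forms peptide bonds and the small subunit decodes the messenger RNA, and a ribosome contains most of their proteins once. In mammals most of these proteins are each made from 1 active gene, although the genome carries many processed copies. Their messenger RNAs begin with a C followed by a run of pyrimidines, the terminal oligopyrimidine (TOP) tract, through which mTOR and LARP1 control their translation together. In the mouse, transcription from the embryo's own genome starts within the first cell cycles after fertilization, and the embryo then builds new ribosomes before it implants.

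Start sequences are shown for the members that differed most between the stages and have an entry in the promoter table of RefSeq (build GRCm38.p6), and for the genes after which 3 of them are named. Each runs from 5 bases before the annotated start to 20 bases from it, 5′ to 3′. Capitals mark a C and the pyrimidines that follow it without a break, where the run begins within 5 bases of the start and has at least 4 pyrimidines after the C.
Rps15a (chr7:118116128-118116152, minus strand): gccatCTTCCCTCgccggtgagtga
Rpl38 (chr11:114668575-114668599, plus strand): tcgttCTTTCCCCgttctcttcggt
Rps27 (chr3:90213629-90213653, minus strand): tcgctCCTTTCCggcggtgacgacc
Rps27l (chr9:66946081-66946105, plus strand): ccgccgCCTCTatcccggaagttgc
Rpl22l1 (chr3:28805503-28805527, plus strand): agcccgttCTCTTCCCacggctgca
Rpl22 (chr4:152324431-152324455, plus strand): ggaatgttccagctcccactgacag
Rpl39 (chrX:37085203-37085227, minus strand): gCCTCTagcgacttcttctaatcgc
Rpl39l (chr16:10170223-10170247, plus strand): tttccggatttccggtggtcgccat
Rpl41 (chr10:128549149-128549173, minus strand): ggctcggaagtgacgacaccgagca
Rplp0 (chr5:115559462-115559486, plus strand): ttcgaggaccgcctggttctcctat
Rpl7l1 (chr17:46782637-46782661, minus strand): gcaagcgcagtagctgaagcaccgg
In these windows the tract begins exactly at the annotated start in Rps15a, Rpl38 and Rps27, a few bases away in Rps27l, Rpl22l1 and Rpl39, and is not found in Rpl22, Rpl39l, Rpl41, Rplp0 and Rpl7l1.

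Of the 86 members, 65 had a promoter entry, and 30 of these (46.2%) had a tract within 5 bases of an annotated start, against 21.2% of the 27025 genes of the promoter table. A tract exactly at the start was found in 14 members (21.5%) and in 3.01% of all genes. For the large subunit 18 of 41 genes and for the small subunit 12 of 24 genes had a tract within 5 bases. An annotated start can lie some bases from the one used in the embryo, so a window without a tract says only that these letters are not there. The 30 members with a tract had a median difference between stages of 0.67 on the log2 scale (quartiles 0.285 and 1.003), and the 35 without had 0.59 (quartiles 0.15 and 0.81), so the groups overlapped widely. Of the 30 genes 28 and of the 35 genes 30 had a larger share at E3.5, as had 57.3% of all 19639 genes listed at both stages.

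Ribosomal protein messenger RNAs held 11.5% of all normalized counts of the gene table at E2.5 and 15.7% at E3.5. The 53 large subunit genes held 7.39% and 9.11%, and the 33 small subunit genes 4.12% and 6.55%. Mitochondrial ribosomal proteins, a set of 78 genes that serve the ribosome of mitochondria, held 0.697% and 0.957%, and the 48 proteasome subunits, which degrade proteins, held 1.24% and 1.86%.

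To compare genes with each other, each mean was divided by the length of the gene's exons in kilobases. These levels were not scaled to the total of each stage, 23557112 and 27145016 normalized counts. A pair of levels from the 2 stages thus also holds that difference, which the shares given further below do not. At E2.5 the median level was 31365 normalized counts per kb for the large subunit (quartiles 19476 and 52113) and 38502 for the small subunit (quartiles 25805 and 52964). At E3.5 the medians were 52589 (quartiles 33626 and 88085) and 73045 (quartiles 50964 and 84403). The small subunit median was thus 1.23 times the large subunit median at E2.5 and 1.39 times at E3.5, while the quartiles of the subunits overlapped at both stages. Among 19988 genes ranked per kb at E2.5, 75 of the 86 members were in the top 1%, and among 20838 genes at E3.5 this held for 78. The top 100 genes included 55 members at E2.5 and 66 at E3.5.

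**Figure D1:**
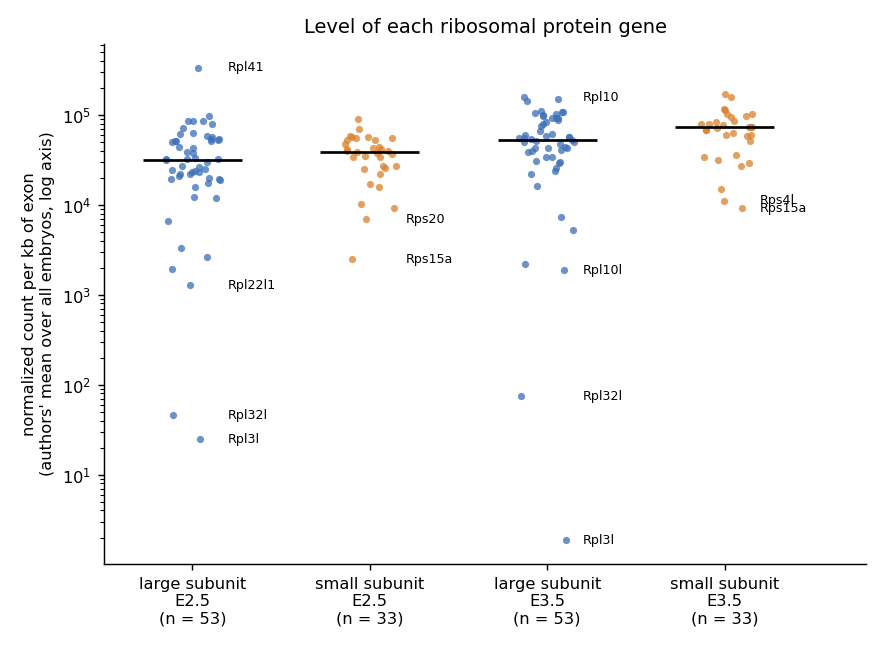
Level of each of the 86 genes as the authors' mean normalized count per kb of exon on a log axis, by subunit and stage, with 1 point per gene and a black line at the median. Most genes lie close to the medians of 31365 to 73045, and a few large subunit genes, Rpl3l and Rpl32l lowest, lie far under them.

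Leaving out the 9 genes whose symbols end in l or l1, the 77 others spanned 134-fold at E2.5, from Rps15a to Rpl41, and 23.6-fold at E3.5. The low end at E2.5 depends on the length used for Rps15a. Of its 5136 exonic bases 4820 lie in a last exon with 1.52% of the read density of its inner exons at E2.5. By the median density of its exons Rps15a ranked 11th in the small subunit at E2.5, in place of 33rd per kb. At E2.5 60 of the 77 and at E3.5 61 of the 77 lay within 2-fold of their median of 37776 and 62926 normalized counts per kb, and the upper quartile was 2.29 and 2.16 times the lower one. The order of the 86 genes was much alike at both stages (Spearman's rho = 0.87 across genes, which share annotation and lengths and are not independent).

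In the large subunit Rpl10, a late-joining protein near the peptidyl transferase centre, had the highest level at E3.5 with 156012 normalized counts per kb, after 85265 at E2.5. Rpl41, whose product is the smallest ribosomal protein and bridges the subunits, followed with 150272, and at E2.5 it had the highest value of all 19988 genes, 334713. Rplp1 of the stalk that binds translation factors had 96958 at E2.5 and 143727 at E3.5. Rpl9 had 54169 and 111066, and Rpl7 had 62451 and 108463.

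Of the small subunit genes with high levels, Rps27a, whose protein is made as a fusion to ubiquitin, had 56412 normalized counts per kb at E2.5 and 155930 at E3.5. Rps3a1 had 70364 and 115611, the X-linked Rps4x had 56894 and 111960, and Rps23 of the decoding centre had 34960 and 102608. These genes all had lower values per kb at E2.5, and the order among them also differed there.

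The lowest small subunit genes per kb at E3.5 were Rps15a with 9155, the processed copy Rps4l with 11069, Rps20 with 15080, Rps21 with 27047 and Rpsa, the laminin receptor, with 28826. This order changes with the measure. The last exon of Rps15a has 4820 of the gene's 5136 exonic bases and held 1.02% of the read density of its inner exons at E3.5, and that of Rps20 has 3100 of 3446 bases and held 3.25%. By the median density of their exons Rps15a was 2nd and Rps20 12th of the 33 small subunit genes at E3.5, in place of 33rd and 31st. Rps6, the target of the S6 kinases, Rps3 and Rpl15 also had last exons under 10% of the density of their inner exons at E3.5, with 5.92%, 2.46% and 6.74%. So had Rpl21 with 4.73%, Rpl27a with 6.01% and Rpl23 with 9.26%. Over the 82 members with at least 3 exons the median last exon had 37.7% of the inner density at E3.5. The last exon was under 25% of the inner density in 21 of these 82 genes and in 1677 of 8796 among all genes with a mean of 100 or more, and at E2.5 in 25 of 82 and 2912 of 7650.

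The messenger RNAs of proteins that act together were set side by side, for groups picked by role after the values were seen. In the stalk, Rplp0, the base on which the other stalk proteins assemble, had 86089 normalized counts per kb at E2.5 and 58651 at E3.5, Rplp1 had 96958 and 143727, and Rplp2 had 51660 and 92112. Rplp0 was the one with a lower value at E3.5 than at E2.5. Of the proteins that join the 5S RNA and can bind the p53 regulator Mdm2, Rpl11 had 52113 and 91710 and Rpl5 had 20848 and 43656. Of the lining of the exit tunnel, Rpl4 had 79190 and 93101 and Rpl39 had 21929 and 47045.

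Of the 9 genes named as copies, 8 were lower per kb than the gene they are named after at both stages, and the levels spanned from 0.00328% to 150% of it. Rpl3l, known from heart and skeletal muscle, had 24.7 normalized counts per kb at E2.5 and 1.87 at E3.5, which was 0.0457% and 0.00328% of Rpl3. Rpl32l had 45.9 and 74.1, under 0.1% of Rpl32 at both stages. Rpl10l, an autosomal copy that replaces the X-linked Rpl10 in male meiosis, had 2.28% and 1.19% of Rpl10. Rpl7l1, a nucleolar relative of Rpl7, had 4.22% and 2.00%, and Rps4l had 16.3% and 9.89% of Rps4x. By Salmon each of these copies made up a smaller part at E3.5 than at E2.5, and by exon counts so did all but Rpl32l, with 0.0808% and 0.3002%.

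The remaining copies were closer to the gene they are named after. Rpl22l1 had 38.4% of the level per kb of Rpl22 at E2.5 and 73.1% at E3.5, and Rpl39l, known from testis, had 30.3% and 47.0% of Rpl39. Rps27l, a p53 target in other cells, had 40.9% and 53.1% of Rps27. These 3 made up a larger part at E3.5, also by exon counts, where the values were 60.01% and 123% for Rpl22l1, 40.8% and 44.0% for Rpl39l, and 39.5% and 53.8% for Rps27l. Rpl36al had 150% of the X-linked Rpl36a at E2.5 and 102% at E3.5 by Salmon, but 67.5% and 32.4% by exon counts. Which of them was higher thus depends on the measure. Rpl36al has 2 exons and Rpl36a has 5, and why the measures disagree was not tested.

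**Figure D2:**
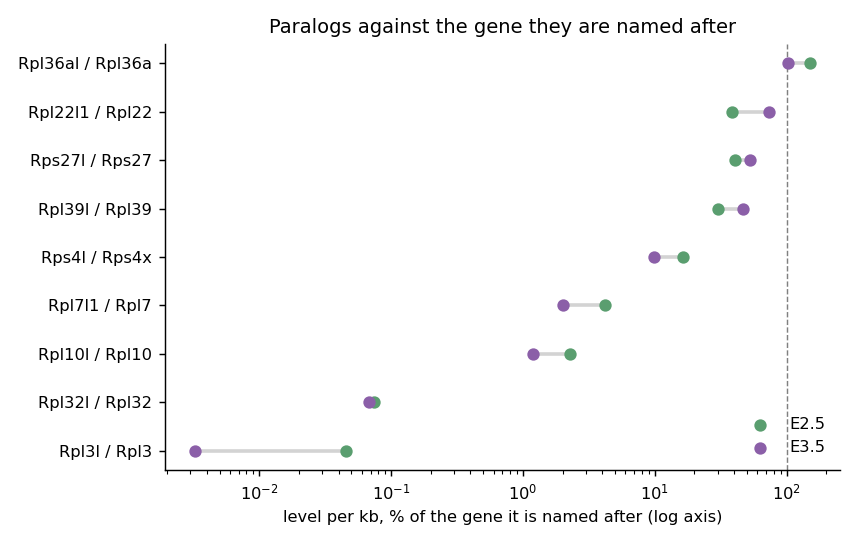
Level per kb of each of the 9 copies in percent of the gene it is named after, on a log axis, at E2.5 (green) and E3.5 (purple), from the authors' means. Rpl22l1, Rps27l and Rpl39l were nearer to 100% at E3.5 than at E2.5, Rpl36al was at 150% and 102%, and the other copies were farther below at E3.5.

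The 4 X-linked members all have such a copy on an autosome. On the log2 scale their share of the total was higher at E3.5 by 0.67 (Rpl10), 1.38 (Rpl36a), 0.90 (Rpl39) and 0.77 (Rps4x). Their copies differed by -0.27 (Rpl10l), 0.82 (Rpl36al), 1.53 (Rpl39l) and 0.06 (Rps4l).

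For the difference between stages each mean was expressed as a share of its own table, since the tables were normalized separately. Of the 86 members, 75 had a larger share at E3.5 and 11 a smaller one, and the median difference was 0.60 on the log2 scale, or 1.52-fold. Among all 19639 genes listed at both stages 57.3% had a larger share at E3.5 and the median was 0.30, so relative to that median 59 members were higher and 27 lower. The small subunit differed by 0.71 (32 of 33 higher) and the large subunit by 0.56 (43 of 53 higher). The median was 0.52 for mitochondrial ribosomal proteins (60 of 78 higher) and 0.56 for proteasome subunits (38 of 48 higher), close to the cytosolic value. A share gives the part of the counts that a gene holds, so the amount of its RNA per cell or per embryo was not measured.

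By Salmon the largest differences upward were in 3 copies and in Rps15a and Rpl38. Rpl22l1 had a mean of 610 normalized counts at E2.5 and 2528 at E3.5, a difference in share of 1.85 on the log2 scale. Rps15a had 12797 and 47019 (1.67), Rps27l 6176 and 21634 (1.604), Rpl38, a protein whose loss in the mouse shortens the tail, 4477 and 14959 (1.54), and Rpl39l 5355 and 17804 (1.53). Summed exon counts gave differences from 1.27 for Rpl38 to 1.80 for Rpl22l1 in these 5 genes, and by that measure, among genes with means of 100 or more, Rpl23a (1.72), Rps29 (1.65) and Rpl36a (1.58) also stood above Rpl39l and Rpl38, so the order depends on the counting. Of the leading small subunit genes, Rps23 was higher by 1.35 and Rps27a by 1.26.

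The largest differences downward among genes with means of at least 100 were all in the large subunit. Rpl41 had 150286 normalized counts at E2.5 and 67472 at E3.5, a difference of -1.36, and Rplp0 had 117080 and 79766 (-0.76). Rpl7l1 had 6875 and 5660 (-0.48), Rpl8 near the peptidyl transferase centre 43203 and 36962 (-0.43), and Rpl29 had 22057 and 18975 (-0.42). By summed exon counts all 5 were lower too, from -0.53 in Rpl8 to -1.70 in Rpl41. Rpl3l is not among them because of its low means of 39.3 and 2.98. In the small subunit Rps9, with -0.02, was the lone gene with a smaller share at E3.5 by Salmon. By exon counts Rps9 (-0.18) and Rps15 (-0.06) were lower, and relative to the median of all genes 8 small subunit genes were lower by Salmon.

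**Figure D3:**
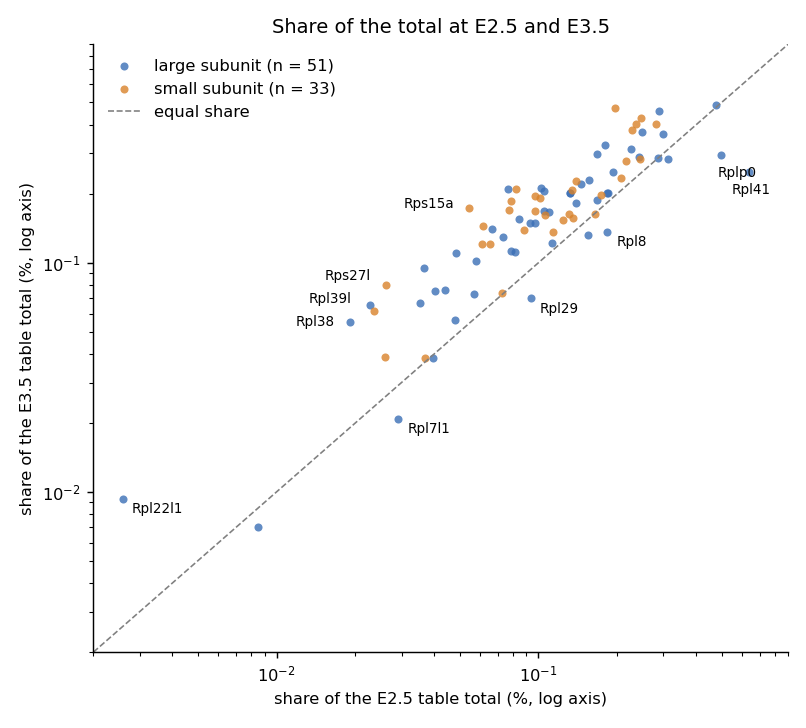
Share of each gene in the total of its table at E2.5 (horizontal) and E3.5 (vertical) in percent on log axes, for the 84 genes above the axis minimum at both stages, which leaves out Rpl3l and Rpl32l. Most points lie above the dashed line of equal share, Rpl22l1, Rps15a, Rps27l, Rpl38 and Rpl39l farthest, and Rpl41 and Rplp0 lie clearly under it.

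The symbol rule leaves out some proteins of the ribosome. Fau, the fusion of a ubiquitin-like protein with a small subunit protein, had 45254 normalized counts per kb at E2.5 and 43668 at E3.5, a difference in share of -0.26. Rack1, a scaffold on the small subunit, had 30100 and 39756 (0.20). Fau thus had a smaller share at E3.5, as 11 of the 86 members had.

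Other genes of translation did not all share the direction of the members. Of 30 ribosome biogenesis factors, which make ribosomal RNA and assemble the subunits, 27 had a smaller share at E3.5 and the median was -0.72 on the log2 scale. Those with the highest level per kb at E3.5 were the snoRNP protein Nhp2 with -0.75, Nop10 with 0.77, Nop56 with -0.19, Ncl with 0.20 and Nop58 with -0.80. Eif6, which keeps new large subunits from joining small ones, had 14324 normalized counts per kb at E2.5 and 2321 at E3.5, a difference of -2.83, and it was named after its values were seen. Of 16 messenger RNAs for translation elongation and other TOP products, 10 had a larger share at E3.5 with a median of 0.16, against 57.3% of all genes and their median of 0.30. Eef1a1, which brings aminoacyl-tRNA to the ribosome, had 73836 and 134061 normalized counts per kb (0.66), the nucleolar chaperone Npm1 92991 and 72884 (-0.56), Btf3 13021 and 31612 (1.08), Eef1g 20287 and 31243 (0.42) and Tpt1 13704 and 22682 (0.52).

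Of 10 regulators of TOP messenger RNA translation, 7 had a smaller share at E3.5, as had 8380 of all 19639 genes listed at both stages. The 3 with a larger share were Rptor (1.45 on the log2 scale), Eif4ebp1 and Mtor (0.19). The cap-binding Eif4e had 8793 normalized counts per kb at E2.5 and 1209 at E3.5 (-3.07), and its inhibitor Eif4ebp1 had 5622 and 9371 (0.53). Larp1, which binds the TOP tract, had 624 and 666 (-0.11), Myc, a transcription factor of ribosomal protein genes, had 946 and 260 (-2.07), and Rps6kb2 had 544 and 250 (-1.33). Larp4 had 5748 and 249 (-4.74), the largest difference in this list.

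**Figure D4:**
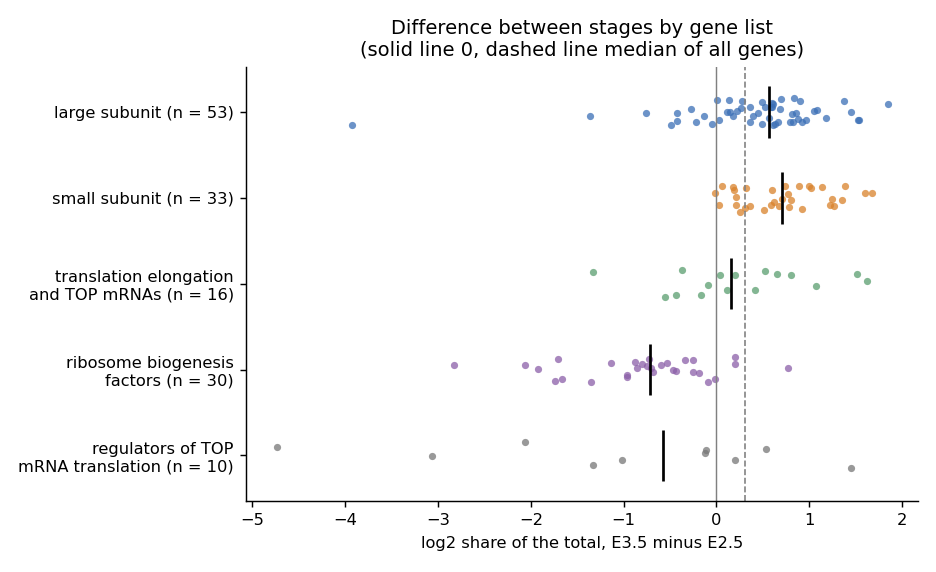
Difference in log2 share of the total between E3.5 and E2.5 for the 2 subunits and 3 lists of other translation genes, with 1 point per gene, a black line at the median, a solid line at 0 and a dashed line at the median of all genes, 0.30. The ribosomal protein genes lie mostly right of 0 and the ribosome biogenesis factors mostly left of it.

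Introns were counted separately from exons, so that the read density of introns can be set against that of the exons of the same gene. Of the 86 members 83 have an intron, and their median intron density was 0.351% of the exon density at E2.5 (quartiles 0.173% and 0.926%) and 0.181% at E3.5 (quartiles 0.0831% and 0.524%). It was lower at E3.5 in 77 of the 83. Among the 7338 genes with a mean of at least 100 at both stages it was lower in 22.8%, and among the 257 genes with a mean of at least 10000 at both stages in 58.8%. The 390 and 426 genes with a mean of at least 10000 had medians of 0.242% and 0.204%, so the median of the members was above theirs at E2.5 and below it at E3.5. All these groups include the members that reach the limit, so they are not a separate background. Of the 86 members, 71 at E2.5 and 81 at E3.5 had a mean of at least 10000. The other genes with such means were not set apart. Mitochondrial ribosomal proteins had medians of 0.355% and 0.346%.

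A few members had much more intron signal. Rpl15 had 7.08% of its exon density at E2.5 and 2.58% at E3.5, most of it in intron 1 (18.03% and 6.56%). Rpl22l1 had 4.74% and 1.67%, most of it in the 124 counted bases of intron 2 (35.3% and 12.7%). Rpl22 (4.55% and 3.45%) and Rpl29 (3.71% and 1.83%) have introns that overlap annotated exons of other transcripts. Rpl10a had 2.87% and 0.808%, highest in intron 3 with 10.9% and 2.51%.

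Rpl41 went the other way, from 0.514% at E2.5 to 4.08% at E3.5, while its share by exon counts was lower at E3.5. The mean count in its intron 1 was 575 at E2.5 and 1596 at E3.5, and in intron 2 it was 593 and 798. Rpl3l (2.15% and 7.14%) was higher at E3.5 too, on intron means of at most 2.06 normalized counts. The others higher at E3.5 were Rpl7l1 (0.204% and 0.590%), Rpl3, Rps27l and Rpsa.

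**Figure D5:**
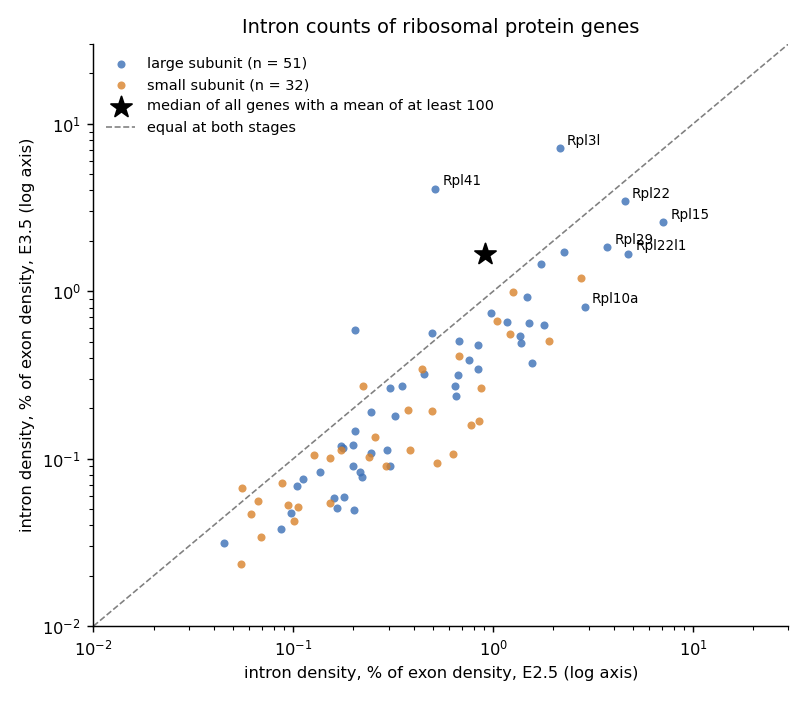
Intron read density in percent of the exon read density of the same gene at E2.5 (horizontal) and E3.5 (vertical) on log axes, for the 83 members with introns. The 77 points under the dashed line had less intron signal at E3.5, Rpl41 and Rpl3l lie above it, and the star marks the median of all genes with a mean of at least 100.

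Introns of ribosomal protein genes often host small nucleolar RNAs (snoRNAs), which guide modification of ribosomal RNA. By the RefSeq annotation 58 of the 393 introns, in 30 of the members, hold one. The share among introns of all genes was not counted, so no excess in the members is claimed. The median density of these 58 introns was 0.285% of the exon density at E2.5 and 0.186% at E3.5, against 0.210% and 0.128% for the 335 introns that hold none. The quartiles of the 2 kinds overlapped at both stages (0.130% to 0.617% and 0.0800% to 0.675% at E2.5).

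METTL16 methylates an adenosine in a nonamer that the synthetic RNA library of this series also carried, TACAGAGAA as DNA. It was searched on the sense strand of the GENCODE vM21 protein coding transcripts of 84 members and found in 1 of them (1.19%), against 897 of the 18829 genes searched (4.76%). Transcripts of the members are short, with a median longest transcript of 942 bases against 2848 bases, and among the 2093 genes with a longest transcript of 673 to 1277 bases the share was 1.43%. The match lies in Rps19, a gene mutated in Diamond-Blackfan anaemia, in its transcript Rps19-201 at position 640 of 1284, at chr7:24889158-24889166 on the plus strand. It is shown because it is the lone match, with 10 bases on each side and the nonamer in capitals.
Rps19: gccaggactaTACAGAGAAaccgtgtctt
In the annotation of the deposited exon table this position is intronic, so it is not in the Rps19 transcript counted there.

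Read assignment and the way of counting limit some values. The counts in the exons of a gene summed to a median of 1.97 times its Salmon value at E2.5 and 1.41 times at E3.5 over the members, and to 1.89 and 1.25 times over all genes whose mean was 100 or more. It was lowest for Rps6 (0.851) at E2.5 and for Rpl36al (0.540) at E3.5, and among genes with means of at least 100 it was highest for Rpl34 (3.43) at E2.5 and Rps15a (2.32) at E3.5. Of the members with 1 exon, Rpl10l had 0.927 and Rps4l 0.936 at E2.5, but Rpl32l, with a mean of 27.1, had 2.43. The part of exon number, and of reads counted in more than 1 exon, was not tested. The same exon sums are behind the values by exon counts and the intron percentages. Rpl31, Rpl7a, Rpl21 and Rps19 have 23, 13, 13 and 13 pseudogenes named after them in RefSeq, and reads of such copies and of the gene cannot always be told apart. The 7 pseudogenes listed in the gene table under the name of a ribosomal protein held 0.0190% of the total at E2.5 and 0.0569% at E3.5, far less than the members. Exons of Rpl13a, Rpl31, Rpl32, Rpl35, Rpl5, Rps25 and Rps27a overlap an exon of another gene, and the library has no strand to separate them.

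All 10 embryo markers fixed for the check of the tissue were listed at both stages, with the trophectoderm keratin Krt8 at means of 651 and 30838 and the pluripotency factor Pou5f1 at 9017 and 3527. Of 6 markers of cumulus and granulosa cells, Amhr2 had means of 997 and 143 and the others were at most 2.48 or were not listed, and 3 blood markers were at most 1.34. Their part in the values of the members was not tested. Mettl16 had a mean of 778 and 669 and Mat2a, the S-adenosylmethionine synthase gene that METTL16 regulates, 29053 and 4664, both pooled over the genotypes.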

How the data were processed

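Single mouse embryos at E2.5 (n = 31) and E3.5 (n = 39) were sequenced with Smart-seq2. The authors estimated counts of RefSeq transcripts (mm10) with Salmon 0.7.2, aligned reads with STAR, counted single exons and introns with featureCounts (introns shortened by 10 nt at both ends) and normalized with DESeq2 1.18.1. The deposited signal used here is the authors' mean normalized count over all embryos of a stage, WT, HET and KO together. The tables' other columns hold the authors' own fold changes and adjusted p-values between genotypes and were not used. Depth per embryo is not given in these tables, so no interval was calculated.

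Means were divided by exonic length in kb (union of the exons of a gene) or by the table total (23557112 and 27145016 normalized counts). Of 20330 and 21199 genes, 342 and 361 had no length. Intron and exon densities were summed over the distinct features of a gene. Sequences and snoRNAs came from RefSeq GRCm38.p6, the build of mm10, and transcripts from GENCODE vM21.

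The design had planned a test of counts between genotypes, with another count model and single embryos left out as alternatives. None was run, since the tables hold no value per embryo. All comparisons are descriptions across genes, without a test. The genes named were the 5 highest and 5 lowest per kb at E3.5 in each subunit, every symbol ending in l or l1, the 5 largest differences between stages in each direction with means of at least 100, the 5 highest intron densities, the 5 largest disagreements of Salmon and exon counts, of which those at the extremes are given, up to 5 genes with the highest level of each list, and Mettl16 and Mat2a. A few results of this rule are not reported here. Genes named for their role were added later. The members and lists were chosen with earlier results of these data known. Alternatives were other lengths, exon counts, filters and sets of introns. Steps were tested on simulated data and run in Python 3.11.15 with pandas 2.3.3 and numpy 2.4.6.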

Additional observations from a re-analysis of the deposited data

How the results depend on the processing

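No spread between embryos is available, so a value counts here as moved when it differs after rounding to 3 significant digits, and a count when it changes by over 1.5 times. No paired analysis was possible because the embryo tables hold pooled means with no replicate numbers and no result comes from a test. For the same reason the planned tests between genotypes by any tool, and the fits without single embryos, were not run. The small subunit median per kb, 1.23 times the large subunit median at E2.5 and 1.39 times at E3.5, stayed above it under every alternative tried: summed exon counts gave 1.44 and 1.56, leaving out the copies named l or l1 gave 1.2002 and 1.31, adding Fau and Rack1 gave 1.23 and 1.34, and the median density of the exons gave 1.183 and 1.38, the last pair of alternatives chosen after seeing the data. The longest transcript gave 1.37 and a minimum mean of 10 gave 1.38 at E3.5, both without a change at E2.5. The share of the total was 12.1% at E2.5 and 16.6% at E3.5 by exon counts. The median difference between stages was 0.30 relative to the median of all genes and 0.55 by exon counts, and 59 and 74 members in place of 75 were then higher at E3.5. The median intron density was 0.349% and 0.168% without introns that hold a snoRNA, 0.306% and 0.149% in introns of at least 100 bases, and 0.247% and 0.144% without introns that overlap an exon, an alternative chosen after seeing the data, so it was lower at E3.5 under each. The 10 named differences between stages kept their direction by exon counts and relative to all genes.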

Other observations

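The first exon of the members was less well covered at the later stage. Over the 82 members with at least 3 exons its median density was 76.3% of that of the inner exons at E2.5 and 46.2% at E3.5, and over all genes with a mean of at least 100 it was 45.8% and 32.3%. The last exon went apart: in the members it had 41.8% and 37.7% of the inner density, and over all such genes 32.8% and 71.9%. These are pooled means of 2 tables with no spread between embryos.

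All 7 named pseudogenes of ribosomal protein genes in the gene table had a larger share at E3.5, as had 75 of the 86 members and 57.3% of all genes listed at both stages. Some rest on low means, as in Rps19-ps3 (14.8 at E2.5 and 57.3 at E3.5) and Rpl31-ps12 (20.1 and 117). Rps15a-ps6 had means of 83.7 and 1029 normalized counts, a difference in share of 3.42 on the log2 scale, and Rps15a-ps4 had 1036 and 2950 (1.30), beside 1.67 for Rps15a itself. Rpl14-ps1 had 1551 and 8367 (2.23), whereas Rpl14 differed by -0.22. How reads were divided between a gene and its copies was not tested.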
